A study of Sus scrofa with 36 samples.

Results

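De novo lipogenesis is the route by which a cell builds fatty acids from acetyl-CoA, and 7 genes were listed for it: FASN, ACACA, ACLY, SCD, ELOVL6, ME1 and SREBF1. A gene counted as a member where its Ensembl pig identifier carried that symbol and had a row in the table of values. ACLY, ACACA, FASN, ME1 and SCD had a row, so 5 of the 12253 genes in the table are described. ELOVL6 and SREBF1 had no row under their identifiers and were not analysed here.

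The values come from RNA-Seq of subcutaneous adipose tissue of 36 F2 pigs, bred by crossing Göttingen minipig boars with Duroc sows. The pigs were chosen on an aggregate genetic value, the Obesity Index. There were 12 lean pigs with a low index (Low, 7 males and 5 females), 12 intermediate pigs around the mean (Mean, 6 males and 6 females) and 12 obese pigs with a high index (High, 6 males and 6 females). The labels give no treatment, and each pig is 1 library, so replicates are animals. The groups are extremes of a genetic index in 1 cross rather than a diet model. The lean pigs were the oldest at slaughter, so age and index group cannot be told apart, and full sibs within a group were limited but are not marked in the labels.

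In pigs, fat rather than liver is the main site of fatty acid synthesis. ATP citrate lyase (ACLY) splits cytosolic citrate into acetyl-CoA, acetyl-CoA carboxylase alpha (ACACA) carboxylates it to malonyl-CoA in the committed step, and fatty acid synthase (FASN) joins the units into palmitate. Malic enzyme 1 (ME1) supplies NADPH for the reductions, and stearoyl-CoA desaturase (SCD) puts the double bond into stearate and palmitate. These genes are well-known targets of insulin-responsive lipogenic transcription factors.

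Between 8735839 and 11755925 reads per pig were recovered from the deposited values, with a median of 10496910. Levels are given as normalized counts, which are reads divided by the pig's size factor. Of 12 adipocyte markers, 6 had a row, including the lipid droplet coat gene PLIN1 and the lipase gene LIPE. Their summed normalized count ran from 30285 to 88148 in Low, from 42062 to 94314 in Mean and from 52701 to 106235 in High pigs. Some libraries stood apart in markers of other cells. Low replicates 2 and 8 had summed macrophage counts of 10615 and 11012, against 2158 to 7247 in the other Low pigs. Low replicate 7 had 14094 normalized counts of the epithelial gene DSP, where the next highest pig had 933.1. High replicates 1, 2 and 3 had summed T or NK cell counts of 2374, 2262 and 1622, against 673.3 to 961.8 in the other High pigs. Low replicate 6 had a summed red cell count of 16052, against at most 3064 in the other Low pigs, and High replicates 10 and 5 had 18078 and 17368. Results were recomputed without each of these 3 sets of 3 pigs, which were chosen after the data had been seen, and the values are given beside the group and sex comparisons where they moved most.

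The 5 enzymes were among the most abundant messages of the tissue. Together they took 0.619% to 8.64% of a pig's reads, with a median of 4.26%. SCD alone took 0.495% to 6.24% of the reads and had the most reads of all genes in 17 of 36 pigs. FASN took a median of 1.01%, ME1 0.106%, ACACA 0.0766% and ACLY 0.0589%. These are shares of reads and not levels per length, since transcript lengths of the build were not used here.

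The enzymes also differed between pigs more than most genes did. Across all 36 pigs the highest value was 42.7 times the lowest for ACLY, 32.1 times for ME1, 27.9 times for FASN, 15.2 times for SCD and 11 times for ACACA. After removal of group and sex, the SD on the log2 scale was 1.40 for ACLY, 0.953 for SCD, 0.947 for ME1, 0.873 for FASN and 0.852 for ACACA. The median gene had an SD of 0.328. All 5 enzymes lay at or above the 95.6th percentile of the 12253 genes, and ACLY lay at the 99.6th.

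The spread was widest in the lean group for all 5 enzymes. Within Low pigs the SD of the log2 values was 1.91 for ACLY, 1.49 for ME1, 1.37 for FASN, 1.34 for SCD and 1.16 for ACACA. Among Mean pigs it ran from 0.434 for FASN to 0.88 for ACLY, and among High pigs from 0.446 for FASN to 1.44 for ACLY. For the median gene the SD was alike in the groups, at 0.334, 0.31 and 0.316. Without Low replicates 2, 7 and 8, the SD in Low pigs was 1.95 for ACLY, 1.49 for ME1, 1.19 for FASN, 1.34 for SCD and 1.18 for ACACA. The difference in spread between groups was not tested.

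The same lean pigs stood at the ends for all enzymes. Low replicates 2, 6, 7 and 12 were among the 9 lowest of the 36 pigs for every enzyme, and no Mean or High pig was. At the other end, Low replicates 4 and 10 and High replicate 8 were among the 9 highest for every enzyme. The lean group therefore held both the lowest and 2 of the 3 highest lipogenic profiles. Low replicates 2, 6 and 7 were among the libraries that stood apart in markers of other cells, as described above. Low replicates 4, 10 and 12 and High replicate 8 were not. Low replicate 7 also had the lowest summed adipocyte count of the 36 pigs, 30285. The part of cell makeup in these profiles was not tested.

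**Figure D1:**
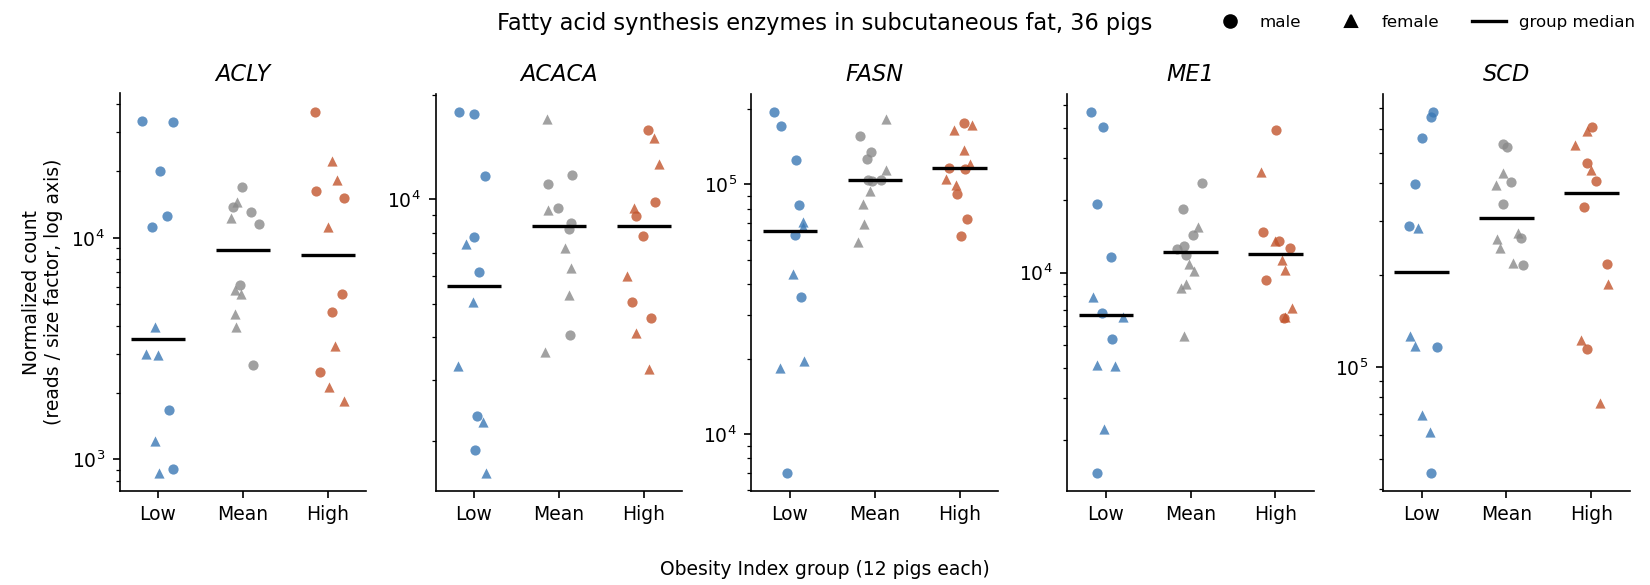
Normalized counts (reads divided by the size factor, log axis) of ACLY, ACACA, FASN, ME1 and SCD in each of 36 pigs, by Obesity Index group; circles are males, triangles females and bars group medians. Low pigs reach from the lowest values, such as 7006 for FASN, up to the highest, 195590, while Mean pigs of FASN stay between 59043 and 182082.

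Obese against lean pigs was the main comparison of the design. Every enzyme had a higher estimate in High than in Low pigs, but the groups overlapped and no enzyme passed the adjusted test. The differences ran from 0.57 on the log2 scale for SCD to 1.13 for FASN. The nearest to the threshold was FASN, with an adjusted p of 0.108 by limma with Benjamini-Hochberg (BH) correction over all genes.

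The enzyme that makes acetyl-CoA, ACLY, had normalized counts of 869.3 to 33540 in Low pigs (median 3490). In Mean pigs they ran from 2677 to 16863 (median 8843), and in High pigs from 1827 to 37121 (median 8399). Here 4 Low pigs lay below the lowest High pig, and 3 lay above the highest Mean pig, while no Low pig was above the highest High pig. ACLY was 0.70 ± 0.541 (SE) higher in High than in Low pigs on the log2 scale (95% interval -0.398 to 1.80, limma adjusted p = 0.577).

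For ACACA, the enzyme of the committed step, Low pigs ran from 1622 to 17918 (median 5608). Mean pigs ran from 3620 to 17078 (median 8368), and High pigs from 3231 to 15826 (median 8393). The medians of Mean and High were nearly equal, and 4 Low pigs were below the lowest High pig while 2 were above the highest. The difference between High and Low was 0.58 ± 0.331 (SE, 95% interval -0.097 to 1.25, limma adjusted p = 0.43).

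FASN, which assembles the fatty acid chain, had the largest difference. Low pigs ran from 7006 to 195590 (median 65138), Mean pigs from 59043 to 182082 (median 103893), and High pigs from 61878 to 176326 (median 115814). As many as 5 of 12 Low pigs were below every High and every Mean pig, yet the highest of all 36 pigs was also a Low pig. In High pigs, 11 of 12 were above the Low median. The difference of 1.13 ± 0.345 (SE) on the log2 scale is a fold of 2.19 (95% interval 0.433 to 1.83 on the log2 scale, unadjusted p = 0.00229, limma adjusted p = 0.108).

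For ME1, which supplies NADPH, Low pigs ran from 1463 to 46972 (median 6653). Mean pigs ran from 5425 to 23726 (median 12249), and High pigs from 6500 to 39347 (median 11987). As with FASN, 5 Low pigs lay below all High pigs, while 2 Low pigs lay above all of them and 10 of 12 High pigs above the Low median. ME1 was 0.72 ± 0.368 (SE) higher in High pigs on the log2 scale (95% interval -0.028 to 1.47, limma adjusted p = 0.365).

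SCD, the desaturase, ran from 45101 to 683764 in Low pigs (median 205198). In Mean pigs it ran from 215265 to 537610 (median 307754), and in High pigs from 76170 to 607135 (median 369851). All 12 Mean pigs were above the Low median, against 8 of 12 High pigs. The difference between High and Low was 0.57 ± 0.382 (SE, 95% interval -0.203 to 1.35, limma adjusted p = 0.501).

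Over all genes, 0.0408% passed the adjusted threshold of 0.05 for High minus Low (5 of 12253), against 0 of the 5 enzymes. An unadjusted p under 0.05 was reached by 14.7% of all genes and by 1 of the 5 enzymes, FASN. The median difference was 0.70 over the 5 enzymes and -0.01 over all genes, of which 47.5% had a positive difference. Because the enzymes move together between pigs, the 5 positive differences do not count as 5 separate observations. In whole tissue, fewer adipocytes and less message per adipocyte cannot be told apart.

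Single lean pigs moved these estimates. Without Low replicate 2, the lowest pig for FASN, ME1 and SCD, the difference was 0.87 for FASN (limma adjusted p = 0.0907), 0.49 for ME1, 0.46 for ACLY, 0.44 for ACACA and 0.37 for SCD. Leaving out Low replicate 10 raised FASN to 1.27 (limma adjusted p = 0.0627), and leaving out Low replicate 4 raised it to 1.28 (limma adjusted p = 0.0726). Without Low replicates 2, 7 and 8 together, the differences were 0.81 for FASN (limma adjusted p = 0.139), 0.40 for ME1, 0.36 for ACACA, 0.33 for SCD and 0.23 for ACLY. Without High replicates 1, 2 and 3 they were 1.10 for ACLY, 1.07 for FASN, 0.87 for SCD, 0.79 for ME1 and 0.76 for ACACA, where SCD and ACACA also had an unadjusted p under 0.05 (limma adjusted p = 0.303 and 0.312). Without the 3 pigs of high red cell counts they were 0.97 for FASN, 0.66 for ME1, 0.45 for SCD and 0.34 for both ACLY and ACACA. No enzyme passed in any of these fits. Over all genes the count that passed was 292 without Low replicate 2, 204 without Low replicate 8 and 393 without Low replicates 2, 7 and 8 together. Low replicates 2 and 8 were picked for macrophage sums that Mean and High pigs also reached, up to 10971 and 11870. Those Mean and High pigs were kept, so the choice itself tilts the comparison, and no conclusion is drawn from these counts.

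Markers of other cells also differed by estimate between the groups. All 8 of 12 macrophage markers with a row had higher estimates in High than in Low pigs, with a median difference of 0.80 on the log2 scale and none past the adjusted threshold. Their summed count ran from 2158 to 11012 in Low, from 2991 to 10971 in Mean and from 4703 to 11870 in High pigs. Within group and sex, these 8 macrophage markers had correlations of -0.479 to -0.0357 with the enzymes, which rested on a few pigs: without the 2 farthest pigs, r lay between -0.268 and 0.175, with both signs. The 4 of 7 endothelial markers with a row had lower estimates in High than in Low pigs (median -0.31), and TIE1 was the nearest of them to the threshold, at -0.51 (limma adjusted p = 0.0709). Their summed count was 9118 to 16246 in Low, 8525 to 14198 in Mean and 7292 to 12468 in High pigs. Of the 4 of 8 T or NK cell markers with a row, 3 had higher estimates in High pigs (median 0.71), with none past the adjusted threshold. Their sums were 598.4 to 1078 in Low, 543 to 1297 in Mean and 673.3 to 2374 in High pigs. The 3 High pigs highest for them, replicates 1, 2 and 3, had 1827, 3249 and 2116 normalized counts of ACLY, under the High median of 8399, and 122560, 186179 and 76170 of SCD, under the High median of 369851. They were also under the High medians of ACACA and ME1, whereas for FASN they had 105552, 137513 and 99432, on both sides of the High median of 115814. The 6 adipocyte markers had a median difference of 0.10, and among them CIDEC, a lipid droplet gene, was 0.54 ± 0.162 (SE) higher in High pigs (limma adjusted p = 0.106). All 31 marker genes with a row were above 0 in every pig, as the filter on low values requires. The part of cell makeup in the enzyme differences was not tested.

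Intermediate pigs were compared with the same Low pigs, so this comparison is not independent of the last. FASN was 1.03 ± 0.345 (SE) higher in Mean than in Low pigs on the log2 scale (unadjusted p = 0.0052, limma adjusted p = 0.263). SCD was 0.79 ± 0.382 (SE) higher (unadjusted p = 0.0455, limma adjusted p = 0.39). For ACLY the difference was 0.77, for ME1 0.68 and for ACACA 0.61, with limma adjusted p-values of 0.44 to 0.572. The share of all genes past the adjusted threshold was 0.00% and past an unadjusted p of 0.05 it was 12.5%, against 0 and 2 of the 5 enzymes. Without Low replicates 2, 7 and 8 the differences were 0.70 for FASN, 0.55 for SCD, 0.40 for ACACA, 0.37 for ME1 and 0.30 for ACLY. Leaving out Low replicate 2 alone gave 0.45 for ME1.

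Obese and intermediate pigs gave closer values. The differences of High minus Mean were 0.11 for FASN, 0.04 for ME1, -0.04 for ACACA, -0.07 for ACLY and -0.22 for SCD on the log2 scale. Their 95% intervals were wide, from -0.592 to 0.804 for FASN and from -1.17 to 1.03 for ACLY. No enzyme had an unadjusted p under 0.05 here, where 4.28% of all genes did, and 0.00% of all genes passed the adjusted threshold. The lean group was the lowest for all 5 enzymes by log2 estimate and by median, and the interval of each difference between Mean and High pigs included 0. By mean normalized count the order turned for 2 of them, with Low above Mean for ACLY (10418 against 9228) and for ME1 (13081 against 12789). Without High replicates 1, 2 and 3 the sign of High minus Mean turned for ACLY (0.35), ACACA (0.16) and SCD (0.09), with limma adjusted p-values of 1.

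With the groups scored as equal steps, FASN had an estimate of 0.57 ± 0.176 (SE) per step on the log2 scale and did not pass the adjusted threshold (unadjusted p = 0.00268, limma adjusted p = 0.112). The steps for the other enzymes were 0.36 for ME1, 0.35 for ACLY, 0.29 for ACACA and 0.28 for SCD. The steps without Low replicates 2, 7 and 8 were 0.39 for FASN (limma adjusted p = 0.172), 0.19 for ME1, 0.17 for ACACA, 0.14 for SCD and 0.10 for ACLY, and without Low replicate 2 alone they were 0.22 for ACLY and 0.18 for SCD. Leaving out High replicates 1, 2 and 3 gave 0.56 for FASN and ACLY, 0.45 for SCD, 0.41 for ME1 and 0.39 for ACACA. Without the 3 pigs of high red cell counts ACLY and ACACA had steps of 0.17 each. Of all genes, 0.0245% passed the adjusted threshold and 14.5% the unadjusted one, against 0 and 1 of the 5 enzymes.

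**Figure D2:**
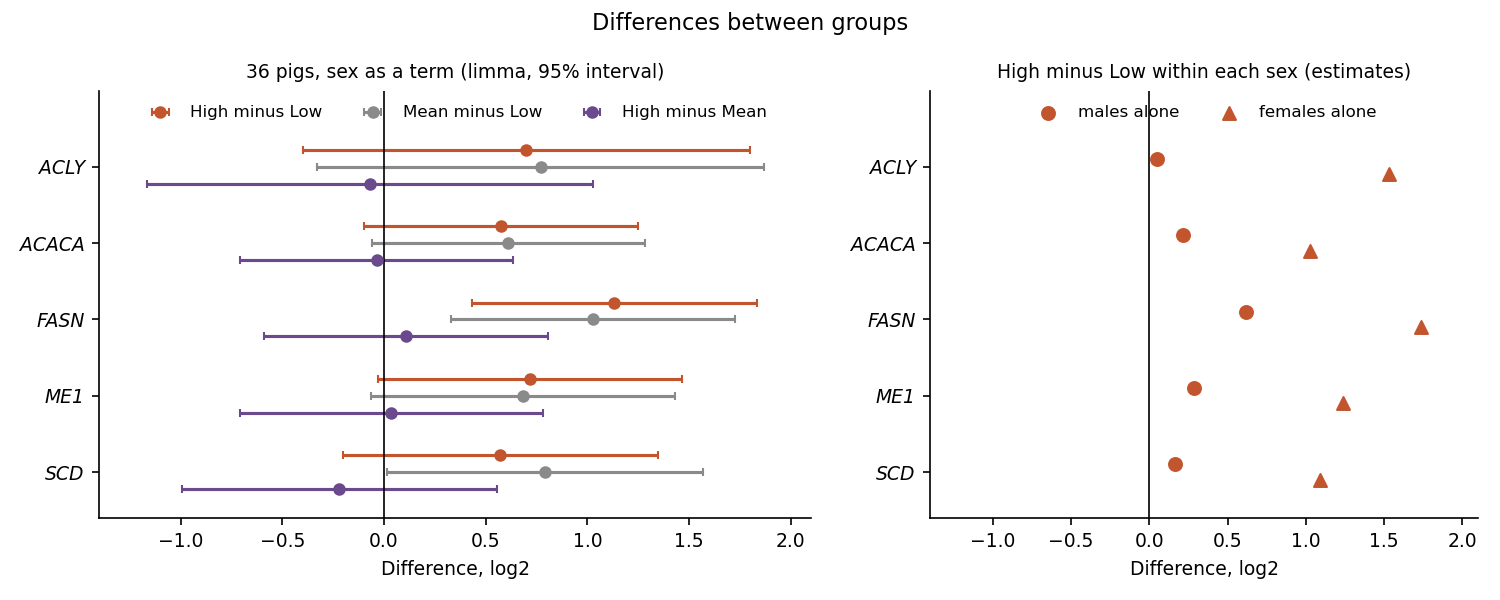
Left, log2 difference of each enzyme between the groups over 36 pigs with its 95% interval by limma; right, the High minus Low estimate in males alone and in females alone. The High minus Mean estimates lie between -0.22 and 0.11, and each female estimate on the right, from 1.03 to 1.74, is above the male estimate of the same enzyme.

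Males had higher estimates than females for every enzyme. ACLY was 1.01 ± 0.443 (SE) higher in males on the log2 scale (unadjusted p = 0.0286, limma adjusted p = 0.216), ME1 0.74 ± 0.301 (unadjusted p = 0.0193, limma adjusted p = 0.181) and SCD 0.64 ± 0.313 (unadjusted p = 0.049, limma adjusted p = 0.271). The differences were 0.45 for ACACA and 0.24 for FASN (limma adjusted p = 0.381 and 0.698). An unadjusted p under 0.05 was met by 3 of 5 enzymes and by 18.3% of all genes, and the adjusted threshold by none of the enzymes and 2.19% of all genes. Without Low replicates 2, 7 and 8, 2 males and 1 female, ME1 passed the adjusted threshold, at 0.95 (limma adjusted p = 0.0493). In that fit ACACA was at 0.65 and FASN at 0.47 (limma adjusted p = 0.15 and 0.264), and without Low replicate 2 alone FASN was at 0.40 (limma adjusted p = 0.34). In the other direction, FASN was at 0.14 to 0.16 when Low replicate 4, 6, 10 or 12 was left out (limma adjusted p = 0.817 to 0.853). Without High replicates 1, 2 and 3, which were all females, ME1 was at 0.68, ACLY at 0.73 and SCD at 0.43, and only ME1 kept an unadjusted p under 0.05.

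By estimate, the sex difference of all 5 enzymes was widest among lean pigs. ACLY in Low pigs ran from 904.6 to 33540 in males (median 12480), and from 869.3 to 3975 in females (median 2953). In High pigs its medians were 10304 in males and 7242 in females. In Low pigs alone, the male minus female difference was 2.07 for ACLY, 1.29 for SCD, 1.26 for ME1, 0.98 for ACACA and 0.76 for FASN. The limma adjusted p-values were 0.516 for ACLY to 0.76 for FASN, and in Low pigs only ACLY had an unadjusted p under 0.05 (0.0265). Low replicates 4 and 10, the highest Low pigs for every enzyme, were males. In Mean pigs alone it ran from 0.21 for ACACA to 0.67 for ME1. In High pigs alone it ran from -0.36 for FASN, where females had the higher estimate, to 0.59 for ACLY.

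The sexes were also looked at apart, with FASN as the enzyme of largest difference. The 5 Low females ran from 18495 to 70532 (median 43691), and the 6 High females from 99432 to 172385 (median 129048), so these 2 sets of pigs did not overlap. FASN was the only 1 of the 5 enzymes without overlap here, and 2.55% of all genes had none. The 7 Low males ran from 7006 to 195590 and spanned all 6 High males, which ran from 61878 to 176326. In females alone FASN was 1.74 higher in High than in Low pigs (limma adjusted p = 0.0588), and in males alone 0.62 (limma adjusted p = 0.679). The other enzymes had differences of 1.03 to 1.53 in females and of 0.05 to 0.29 in males.

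The test of the difference between the sexes did not separate them. The interaction, High minus Low in males less that in females, ran from -0.81 for ACACA to -1.48 for ACLY on the log2 scale, with limma adjusted p-values of 0.483 for FASN to 0.618 for SCD. For FASN it was -1.12 ± 0.686 (SE, 95% interval -2.52 to 0.275, unadjusted p = 0.112). None of the 5 enzymes had an unadjusted p under 0.05, against 12.9% of all genes, and 0.00816% of all genes passed the adjusted threshold. The value depended on small sets of pigs. Leaving out Low replicates 2, 7 and 8 made it -2.11 for FASN (limma adjusted p = 0.0543) and between -1.74 and -2.82 for the other enzymes. In that fit the unadjusted limma p-values ran from 0.00012 for FASN to 0.00545 for ACACA, and the adjusted ones up to 0.128. These pigs were chosen after the data had been seen. Leaving out High replicates 1, 2 and 3 gave -2.82 for ACLY, -1.90 for SCD and -1.48 for ACACA, which had unadjusted p-values under 0.05 (limma adjusted p = 0.275 to 0.356), and -1.25 for FASN. It was smaller without the 3 pigs of high red cell counts, at -0.46 for ACACA and -0.87 for FASN. Without Low replicate 4 alone it was -0.62 for ME1 and -0.87 for FASN.

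Between pigs of the same group and sex, the 5 enzymes varied together. Over the 10 pairs, Pearson's r of the log2 values after removal of group and sex ran from 0.676 to 0.932, with a median of 0.76 over 36 pigs. Spearman's rho ran from 0.601 to 0.926. All 10 pairs passed a two-sided permutation test within group and sex, with BH-adjusted p-values over the 10 pairs of 1.67e-05 to 0.00015 for r and of 2.5e-05 to 0.00116 for rho. The permutation test was not run over all genes, so the share of all genes that would pass is not known. An r of 0.6 or higher was reached by 1.07% of the other genes with ACACA up to 2.30% with ME1. For 6 pairs the unadjusted p of r was 1e-05, the smallest that 100000 resamples can give.

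The tightest pair was ACACA with ACLY, which catalyse successive steps (r = 0.932, rho = 0.926). FASN followed ME1 most closely (r = 0.892, rho = 0.842), and SCD followed ACLY (r = 0.88, rho = 0.899). FASN with ACLY had the lowest r, at 0.676 (rho = 0.608). With the 2 pigs farthest from the median of the named first enzyme left out, r ran from 0.57 for FASN with ACLY to 0.915 for ACACA with ACLY. Without Low replicates 2, 7 and 8 it ran from 0.581 to 0.924, with a median of 0.683 over 33 pigs.

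Within single groups of 12 pigs the pairs are given without a test. In Low pigs r ran from 0.805 to 0.957, and in High pigs from 0.595 to 0.961. In Mean pigs, FASN with ME1 had an r of 0.841 and ACACA with ACLY one of 0.849, while ACLY with SCD had 0.699 and ACACA with SCD 0.546. The 6 pairs that join FASN or ME1 with ACACA, ACLY or SCD had an r of only -0.285 to 0.208 in Mean pigs. Whether r differs between the groups was not tested, and Mean pigs also had the smallest spread of each enzyme.

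**Figure D3:**
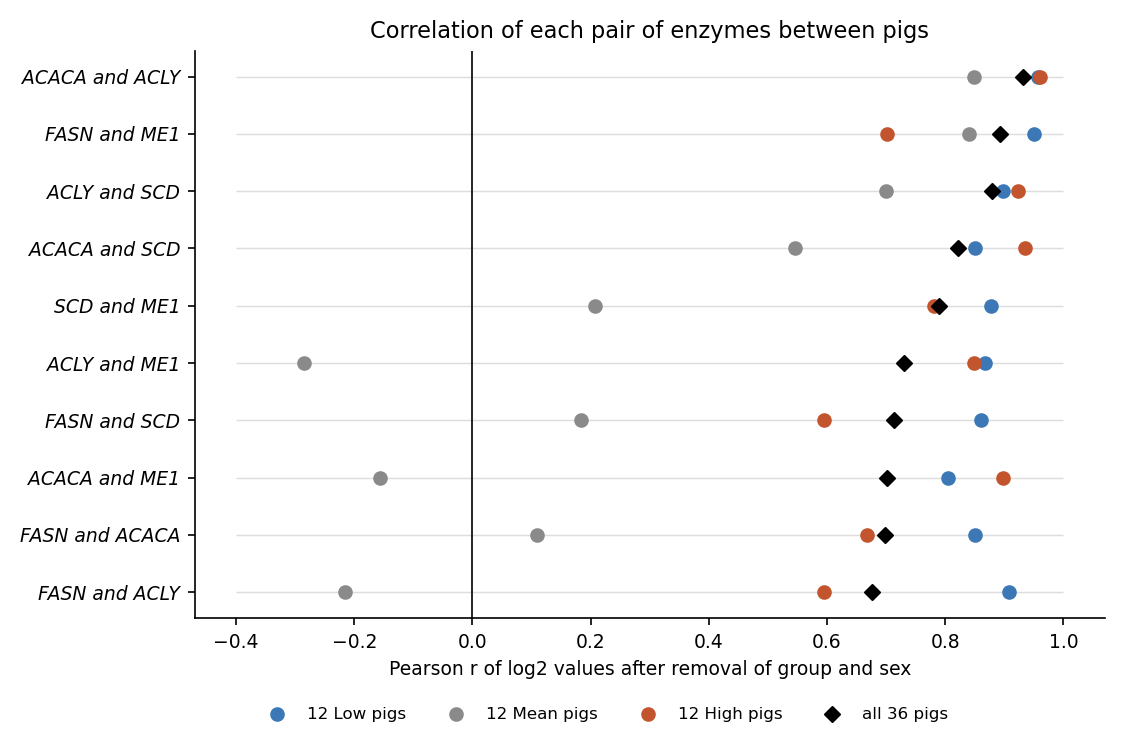
Pearson's r of each pair of enzymes after removal of group and sex, over all 36 pigs (diamonds) and within the 12 pigs of each group (circles). Mean pigs split into pairs at 0.546 to 0.849 and pairs at -0.285 to 0.208, whereas in Low pigs every pair is at 0.805 or higher.

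Among the other genes, those most like each enzyme included enzymes of neighbouring steps. The measure of likeness was r after removal of group and sex over 36 pigs, and since these genes were picked for it they carry no p. The 3 nearest to FASN among genes with a symbol were SLC25A1, the mitochondrial citrate carrier (r = 0.891), TALDO1 of the pentose phosphate pathway (r = 0.889) and the cytosolic aconitase ACO1 (r = 0.873). Among the 3 nearest to ME1 were HSD17B12, a fatty acid elongation enzyme (r = 0.921), and UQCRFS1, a subunit of respiratory complex III (r = 0.906).

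Among genes with a symbol, ACSS2, which makes acetyl-CoA from acetate, was the nearest to ACACA (r = 0.881), ACLY (r = 0.906) and SCD (r = 0.912). ACSL1, which activates long-chain fatty acids, came second for all of them, with r of 0.839, 0.901 and 0.889. The third was the glycogen branching enzyme gene GBE1 for ACACA (r = 0.839), the nuclear receptor gene PPARD for ACLY (r = 0.88) and DLAT, a pyruvate dehydrogenase subunit, for SCD (r = 0.863). Without the 2 farthest pigs, r for these 15 gene and enzyme pairs stayed between 0.797 and 0.9. An r of 0.6 or higher was reached by 1.97% of the other 12248 genes with FASN, 1.07% with ACACA, 1.24% with ACLY, 1.24% with SCD and 2.30% with ME1.

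The genes that supply substrate and NADPH shared this pattern to the greatest extent among the pathway lists. Of 15 such genes with a row, 11 reached an r of 0.6 with FASN and 11 with ME1, against 4 with ACACA, 6 with ACLY and 9 with SCD. Without the 2 farthest pigs of each relation, these counts were 8 with FASN, 9 with ME1, 3 with ACACA, 3 with ACLY and 5 with SCD. SLC25A1, ACSS2 and the pyruvate dehydrogenase subunit gene PDHB were among those that reached it with all 5 enzymes, but without the 2 farthest pigs SLC25A1 was at 0.488 with ACACA, 0.533 with ACLY and 0.48 with SCD. In permutation tests adjusted by BH over 325 relations (65 pathway genes with 5 enzymes), 9 of the 15 genes passed with every enzyme, all with positive r. The share of all genes that would pass this test was not computed. The mitochondrial malic enzyme gene ME2 had a negative r of -0.319 with ME1 that did not pass (BH-adjusted permutation p = 0.176).

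Of 10 elongation and desaturation genes, HSD17B12 passed with all 5 enzymes, at r of 0.581 to 0.921 (0.44 to 0.885 without the 2 farthest pigs). With at least 1 enzyme, 3 of these 10 genes passed. Of 10 genes of fatty acid activation and triglyceride assembly, ACSL1 passed with all 5 enzymes, at r of 0.685 to 0.901 (0.517 to 0.877 without the 2 farthest pigs). With at least 1 enzyme, 5 of these 10 genes passed, and r in the list went down to -0.556. None of 11 kinase and insulin input genes and none of 4 fatty acid uptake genes passed with every enzyme, and their r lay between -0.493 and 0.427. In each of these lists 1 gene passed with 1 enzyme: the AMPK subunit gene PRKAG2 with SCD (r = -0.493, BH-adjusted permutation p = 0.00768) and the lipoprotein receptor gene VLDLR with ACACA (r = 0.427, BH-adjusted permutation p = 0.029).

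SREBF1 was not among the 15 transcription factor and SREBP handling genes with a row, and no gene of the list reached an r of 0.6 with all enzymes. With at least 1 enzyme, 7 of these 15 genes passed, and r in the list ran from -0.581 to 0.628. MLXIPL, the glucose-responsive factor ChREBP, had r of 0.628 with ACACA (BH-adjusted permutation p = 0.00433), 0.586 with ACLY (BH-adjusted permutation p = 0.00998) and 0.596 with FASN (BH-adjusted permutation p = 0.0513). With SCD and ME1 its r was 0.412 and 0.398. Without the 2 farthest pigs, r for MLXIPL was 0.568 with ACACA and 0.491 with ACLY, but 0.339 with FASN, 0.191 with SCD and 0.0786 with ME1. USF1, a factor that binds E-boxes of lipogenic promoters, was the only one of the 65 pathway genes that passed with all 5 enzymes at a negative r. It ran from -0.581 with ACACA to -0.388 with FASN, with BH-adjusted permutation p-values of 0.00357 to 0.0214, and without the 2 farthest pigs from -0.55 to -0.313.

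**Figure D4:**
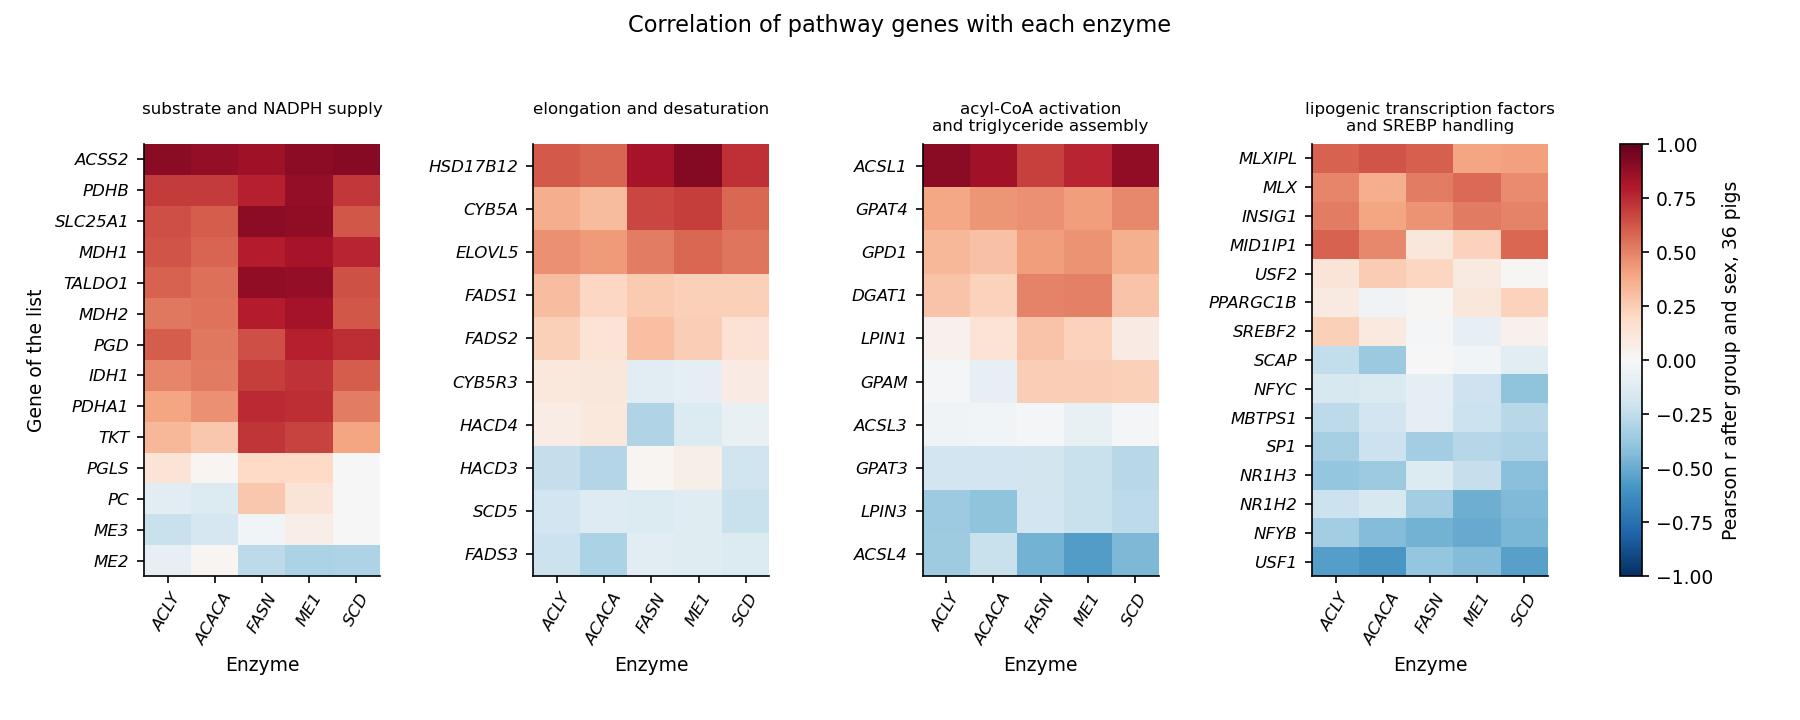
Pearson's r after removal of group and sex over 36 pigs between each enzyme (columns) and the genes of 4 pathway lists (rows, ordered by mean r); red is positive and blue negative. ACSS2, PDHB and SLC25A1 reach 0.6 or more in every column of the supply list (SLC25A1 without the 2 farthest pigs only for FASN and ME1), and USF1 is negative throughout, from -0.581 to -0.388.

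Between obese and lean pigs, none of the 65 other pathway genes passed the adjusted threshold. Of the 15 supply genes, 13 had higher estimates in High pigs, with a median of 0.25 on the log2 scale against -0.01 over all genes. Among those with the smallest unadjusted p were ME2 (0.40, limma adjusted p = 0.223), TALDO1 (0.29, limma adjusted p = 0.367) and PGD of the pentose phosphate pathway (0.33, limma adjusted p = 0.408). ME2 was thus the nearest to the threshold of the list. Its mean was 306 ± 90.11 (SD, n = 12) normalized counts in Low and 395.3 ± 51.69 (SD, n = 12) in High pigs.

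Elongation and desaturation genes split evenly, with 5 of 10 higher in High pigs and a median of 0.02 on the log2 scale. HACD4, a dehydratase of the elongation cycle, had the largest difference of the list, at 0.72 ± 0.276 (SE, limma adjusted p = 0.196), at a mean of only 64.45 normalized counts in Low pigs. The desaturase gene FADS1 was at -0.34 (limma adjusted p = 0.423), the elongase gene ELOVL5 at 0.35 (limma adjusted p = 0.474) and the electron carrier gene CYB5A at 0.22 (limma adjusted p = 0.481).

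The 15 transcription factor and SREBP handling genes had a median difference of 0.01, with 8 higher in High pigs. NFYC, a subunit of the CCAAT-binding factor NF-Y, was at -0.20 (limma adjusted p = 0.226) and MLXIPL at 0.38 (limma adjusted p = 0.335). The SREBP protease gene MBTPS1 was at 0.11 (limma adjusted p = 0.367) and SP1 at 0.18 (limma adjusted p = 0.501). The 11 kinase and insulin input genes had a median of 0.02, and PRKAG1 (-0.12), PRKAB1 (0.10), PRKAB2 (0.16), which encode AMPK subunits, and the insulin receptor gene INSR (-0.26) had limma adjusted p-values of 0.475 to 0.61.

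Genes that use the fatty acids had estimates of both signs. In the list of activation and triglyceride assembly, with a median of -0.14 over 10 genes, ACSL4 was at 0.58 ± 0.197 (SE, limma adjusted p = 0.144) and ACSL3 at -0.52 ± 0.185 (SE, limma adjusted p = 0.161), both acyl-CoA synthetases. The lipin gene LPIN3 was at -0.23 and GPD1, which makes glycerol 3-phosphate, at -0.23, with limma adjusted p-values of 0.408 and 0.564. ACSL1, so close to ACLY between pigs, differed by 0.09 between High and Low (limma adjusted p = 0.948). Of 4 uptake genes, SLC27A1, a fatty acid transport protein, was at 0.58 (limma adjusted p = 0.30) and the binding protein gene FABP5 at -0.24 (limma adjusted p = 0.317), while VLDLR was at 0.18 and SLC27A4 at 0.07.

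Males and females did not differ past the adjusted threshold for any of the 65 pathway genes, whereas among the marker genes LIPE was lower in males, by a log2 difference of -0.55 (limma adjusted p = 0.00534). PNPLA2, the other main triglyceride lipase, was at -0.37 (limma adjusted p = 0.0483). All 6 adipocyte markers with a row, these lipases included, had lower estimates in males, with a median difference of -0.35 on the log2 scale and 2 past the adjusted threshold. All 8 macrophage markers with a row were also at lower estimates in males (median -0.33), as were all 4 T or NK cell markers (median -0.91), with none of these past it. The fibroblast gene DCN was 0.62 higher in males (limma adjusted p = 0.0222), and all 4 fibroblast markers had higher estimates in them. The part of cell makeup in the sex differences was not tested.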

How the data were processed

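RNA-Seq values of subcutaneous fat from 36 pigs were read from 1 table. Per the paper's methods and the submitters' processing notes, the authors filtered reads with FastQC, mapped them with STAR to Sscrofa 10.2, counted them with HTSeq, removed genes at a level of 5 or lower, took size factors from DESeq and applied voom of limma. Their deposited log2 values come from reads plus 0.5 divided by a size factor plus 1. Adding 1 leaves part of the depth difference, so division by the whole size factor was also tried. Whole reads were recovered for 99.9% of values within 0.1. Symbols came from a name table that matched 8320 of 12253 identifiers. Its build was not that of the files, so no coordinates are given, and no sequences were used here. Normalized counts are recovered reads over the size factor.

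Each gene was tested with limma 3.58.1 in R 4.3.3 (empirical Bayes with trend) on the 36 pigs in a model of group plus sex, with Benjamini-Hochberg (BH) adjustment across the table and a threshold of 0.05. Groups came from the labels. Correlations used residuals after group and sex and 100000 permutations within group and sex (Python 3.11.15, numpy 2.4.6, scipy 1.17.1, pandas 2.3.3, matplotlib 3.10.9). The steps were tested on simulated data. The members and gene lists were chosen with earlier results of these data known. Of each pathway list, genes past the adjusted threshold in any contrast were named, otherwise the 4 with the smallest unadjusted p for High minus Low, and for each enzyme the 3 genes with a symbol of highest r. ACSL1, PDHB, MLXIPL, USF1, HSD17B12, PRKAG2 and VLDLR in the correlation results and TIE1 among the markers were named after their values were seen. Alternatives were no sex term, only the 2 groups compared, limma without the trend, the lowest 25% of genes removed, each pig's median subtracted, voom weights on recovered reads, a pseudocount of 1 on the linear scale, each sex alone and each pig left out. The whole size factor, sex within each group and the fits without 3 sets of 3 pigs were added after the data were seen. For 1 pathway gene, counted in its list, no value is reported here. The labels tie neither lanes nor sibs to single pigs.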

Additional observations from a re-analysis of the deposited data

How the results depend on the processing

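No enzyme passed the adjusted threshold for High minus Low, Mean minus Low, High minus Mean, the linear trend or the sex interaction under any alternative. For male minus female, ME1 alone passed, in the fit without Low replicates 2, 7 and 8 (0.95). High minus Low for FASN ran from 1.11 to 1.15 over the alternatives that kept all Low and High pigs. With each pig left out it ran from 0.87 to 1.28 for FASN, 0.44 to 0.71 for ACACA, 0.46 to 0.91 for ACLY, 0.37 to 0.73 for SCD and 0.49 to 0.91 for ME1.

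Counts over all genes were less stable. For High minus Low, 5 genes became 3 without the sex term, 17 with only the 2 groups compared, 12 without the trend, 1 with the lowest 25% of genes removed, 9 with each pig's median subtracted, 9 with the whole size factor, 2 in males alone, 21 in females alone, 393 without Low replicates 2, 7 and 8 (the 3 Low pigs), and 0 without the 3 pigs of high red cell counts. Leaving out each pig gave 1 to 292, and 28 of 36 pigs moved the count by over 1.5 times (Low replicate 2 to 292, Low replicate 8 to 204). For the linear trend, 3 genes became 5 without the trend term of limma, 6 with medians subtracted, 327 without the 3 Low pigs, 11 without High replicates 1, 2 and 3, 0 without the red cell set and 1 to 274 with each pig left out (Low replicate 2 to 274, Low replicate 8 to 145). For Mean minus Low, 0 became 25 without the 3 Low pigs and 0 to 6 with each pig left out (Low replicate 8 to 6). For male minus female, 268 became 0 in Low pigs alone, 1 in Mean pigs alone, 71 without High replicates 1, 2 and 3, 131 without the red cell set and 147 to 546 with each pig left out (High replicate 1 to 147, Low replicate 1 to 546, Low replicate 2 to 409). For the interaction, 1 became 0 with only the 2 groups, 2 without the trend, 0 with medians subtracted, 0 with the whole size factor, 6 without the 3 Low pigs, 0 without either of the other sets and 0 to 33 with each pig left out (Low replicate 2 to 33, High replicate 8 to 29). Low replicates 2 and 8 were set apart by macrophage sums that pigs kept in Mean and High also reached. The causes were not tested.

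With each pig left out, High minus Mean changed sign for ACACA (-0.149 to 0.088), ACLY (-0.267 to 0.127) and ME1 (-0.092 to 0.155), as it did without High replicates 1, 2 and 3 for ACACA (0.161), ACLY (0.353) and SCD (0.093). FASN was -0.36 for male minus female in High pigs alone. All 10 pairs of enzymes passed without removal of group and sex and with medians subtracted. After removal of group and sex, the log2 of a pig's total reads had an r of -0.158 with ACACA to 0.0975 with ME1. Whether depth or the spread between pigs limits these comparisons was not tested. The 95% interval of High minus Low for ACLY ran from -0.398 to 1.80.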
